A study of Mus musculus with 4 samples.

Results

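Distal sites of open chromatin that lie close together were examined as clusters in immortalized mouse embryonic fibroblasts with and without HAT1. A site was taken as distal when it lay on an autosome and its midpoint was more than 3 kb from any annotated transcription start site (TSS), neighbouring distal sites were joined when the gap between them was at most 5 kb, and joined groups with 6 or more sites were kept. This gave 63 clusters holding 418 of the 82325 sites in the table, which is 0.508% of all sites and 0.709% of the 58940 distal autosomal sites. The rule used the positions of sites and none of their values. The sites are themselves peaks called from accessibility, so the signal level of members is not independent of the choice.

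The data are ATAC-Seq, in which Tn5 transposase inserts adapters into open chromatin, so that the reads at a site measure its accessibility. HAT1 is the histone acetyltransferase that acetylates newly made histones, and the comparison asks how its loss alters chromatin accessibility. There were 2 libraries from HAT1 WT cells and 2 from HAT1 KO cells, all with the strain background C57bl6, and the labels name no treatment for any of them. Every line, the controls included, was a separate fibroblast line from an embryo, made immortal with a plasmid encoding SV40 T antigen, so a genotype was seen in 2 lines and line and genotype cannot be told apart within a library. Replicate numbers below follow the order of deposit and pair nothing.

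Enhancers are stretches of DNA, often far from a promoter, at which transcription factors bind and open the chromatin. Where several lie close together, as in the regions called super-enhancers or stretch enhancers, they commonly flank genes that are highly active in the cell type concerned. In fibroblasts, AP-1 (dimers of FOS and JUN proteins), TEAD and RUNX proteins are the factors best known for binding distal elements.

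To show what such elements look like, the middle 300 bases of the strongest site were taken for 5 clusters, from the plus strand of GRCm38 (mm10), written 5′ to 3′, with every match to the AP-1 motif TGANTCA in capitals. The first is from the cluster with the smallest p-value, the next from a 10-site cluster and the Actn1 window from the site with the smallest p-value of all 418. The last pair is from the clusters in which a single library stood furthest from the others.
Sgk1 cluster, chr10:21790541-21790840: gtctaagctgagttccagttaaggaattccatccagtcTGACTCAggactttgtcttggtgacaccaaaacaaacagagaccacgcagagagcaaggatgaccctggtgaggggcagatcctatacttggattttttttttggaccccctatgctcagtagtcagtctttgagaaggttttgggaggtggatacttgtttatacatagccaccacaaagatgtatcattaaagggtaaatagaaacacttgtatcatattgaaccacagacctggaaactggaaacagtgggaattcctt
Lrrc17 cluster, chr5:21492290-21492589: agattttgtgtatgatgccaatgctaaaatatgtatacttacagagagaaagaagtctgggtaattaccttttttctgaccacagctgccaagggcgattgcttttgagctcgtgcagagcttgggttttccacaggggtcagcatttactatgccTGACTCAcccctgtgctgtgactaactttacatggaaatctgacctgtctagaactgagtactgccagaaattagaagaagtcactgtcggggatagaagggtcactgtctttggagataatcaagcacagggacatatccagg
Actn1 cluster, chr12:80220481-80220780: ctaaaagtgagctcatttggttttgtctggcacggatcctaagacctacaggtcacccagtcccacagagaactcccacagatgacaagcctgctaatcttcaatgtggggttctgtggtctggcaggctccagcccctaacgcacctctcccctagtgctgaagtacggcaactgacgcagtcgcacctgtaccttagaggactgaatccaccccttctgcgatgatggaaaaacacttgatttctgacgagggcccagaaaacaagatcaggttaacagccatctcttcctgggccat
Adamts16 cluster, chr13:70736391-70736690: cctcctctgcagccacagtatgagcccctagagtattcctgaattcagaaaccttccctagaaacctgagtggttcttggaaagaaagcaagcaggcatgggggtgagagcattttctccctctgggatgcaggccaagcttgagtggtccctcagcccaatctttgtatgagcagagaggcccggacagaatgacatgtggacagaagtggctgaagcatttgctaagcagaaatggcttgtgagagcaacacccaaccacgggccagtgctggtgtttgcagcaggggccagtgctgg
Lbh cluster, chr17:72970844-72971143: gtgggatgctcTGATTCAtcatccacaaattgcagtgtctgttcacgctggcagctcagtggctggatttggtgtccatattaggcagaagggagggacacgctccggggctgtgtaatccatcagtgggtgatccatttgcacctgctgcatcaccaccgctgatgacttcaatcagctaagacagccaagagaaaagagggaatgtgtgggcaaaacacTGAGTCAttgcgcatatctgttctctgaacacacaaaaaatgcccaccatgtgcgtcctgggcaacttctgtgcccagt

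The Sgk1 and Lrrc17 windows each held 1 AP-1 match and the Lbh window held 2, while the Actn1 and Adamts16 windows held none. Over all member sites, 196 of 418 such windows (46.9%) held an AP-1 match on either strand, against 44.6% of 58522 other distal sites and 18.8% of the 21525 sites within 3 kb of a TSS. A match occurred in at least 1 site of 60 of the 63 clusters, and in up to 6 sites, as in the Lrrc17 cluster. With 6 or more windows per cluster, most would hold a match at the share of other distal sites. The count of 60 is therefore not a trait of the clusters, and it was not set against other groups of equal size. TEAD letters (GGAATG) were found in 25.4% of member windows against 27.7% of other distal windows, and RUNX letters (TGTGGT) in 30.6% against 30.0%. The CTCF core motif, of the protein that bounds chromatin loops, was found in 5.02% against 8.94%. The windows of members had a median GC content of 49.3%, against 46.7% for other distal sites. These are shares of letters and not of bound sites, and the AP-1 share was 44.4% in the strongest site of each cluster and 46.0% in the weakest. Of the 418 windows, 3 had another match in the chromosomes at 90% identity over 80% of the window.

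The clusters were compact, which follows from the rule that joined sites across gaps of at most 5 kb. They spanned 7.55 to 29.1 kb with a median of 15.8 kb, and the median gap between neighbouring members was 2144 bp. Of the 63, 41 had 6 sites, 11 had 7, 6 had 8, 3 had 9 and 2 had 10. The 2 clusters with 10 sites were upstream of Lrrc17, which encodes a secreted leucine-rich repeat protein, and upstream of Itga3, which encodes the integrin alpha 3 subunit. Just outside the size limit were 137 groups of 5 sites. The nearest distal site beyond a cluster was at least 5.07 kb away, since the rule would have joined any site within 5 kb.

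Each cluster was named by the protein-coding TSS nearest to its midpoint, which lay 11.1 to 768 kb away with a median of 45.7 kb. It was within 50 kb for 33 clusters and over 100 kb for 15. The nearest TSS is only a name, since 40 clusters overlapped the body of a protein-coding gene and only 26 overlapped that of the gene they are named for. The cluster nearest to Agbl3, for example, lay in introns of Cald1, which encodes the actin-binding protein caldesmon, and the one nearest to Scgb1a1 lay in Ahnak. Introns held 241 of the 418 members (57.7%, against 47.5% of other distal sites), 156 members were intergenic (37.3% against 47.0%) and 21 were in exons. Intergenic here means outside protein-coding genes and outside the exons of any annotated gene. In 26 clusters every member was intronic, and in 21 every member was intergenic.

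Over all sites, members had about as much signal per kb of site as sites near a TSS, which were longer. The values are counts that the authors normalized between libraries, and their median per kb of site was 198 and 197 in WT replicates 1 and 2 and 209 and 206 in KO replicates 1 and 2. In the same libraries, distal sites that stood alone had medians of 98.1, 92.1, 96.5 and 96.8, and sites within 3 kb of a TSS had 211, 198, 207 and 198. In each library members stood above lone distal sites, with distal sites in groups of 2 to 5 in between. Members exceeded other distal sites by 0.92 ± 0.03 on the log2 scale (SD, n = 4 libraries, exact sign-flip permutation test, two-sided p = 0.125, the smallest p that 4 libraries allow). All 4 libraries scored the same sites. The SD and p therefore describe agreement between libraries and not the spread between sites or clusters. Site lengths were alike, with a median of 410 bp for members and 411 bp for other distal sites. Among sites whose mean value was at or above the median of the table, which included 298 of the 418 members, the difference was 0.42. Among these, sites near a TSS had more per kb than members in each library. They had 258, 247, 260 and 255, against 230, 237, 250 and 248 for members, in the library order above. Over all sites, those near a TSS had a median length of 603 bp. Their median values per site were 125, 118, 122 and 116, against 76, 77, 82 and 80 for members.

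**Figure D1:**
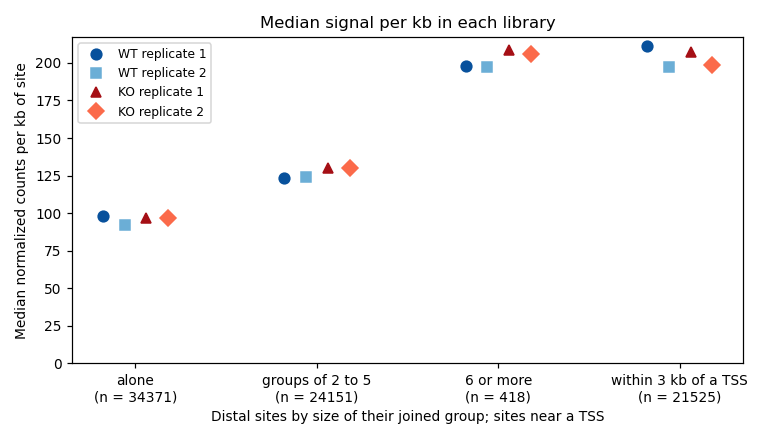
Median normalized counts per kb of site (vertical axis) in each of the 4 libraries (points) for distal sites that stand alone, distal sites in groups of 2 to 5, members of clusters of 6 or more, and sites within 3 kb of a TSS. In each library the cluster members sit between 197 and 209, near the sites at a TSS and above both other classes of distal sites.

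No cluster passed the thresholds for a difference between genotypes. The value of a cluster was the sum over its sites, and KO was compared with WT by limma on log2(sum + 1), fitted over all 44899 joined groups of any size. A group was called at p under 0.01 with a log2 fold change of at least 0.58 in size, which was met by 0 of the 63 clusters and by 0.405% of all joined groups (0.312% lower and 0.0935% higher in KO). The smallest p was 0.0228, at Sgk1, followed by 0.0270 at Actn1 and 0.0368 at Zfpm1, every adjusted p from limma was 1, and 3 clusters had an unadjusted p under 0.05 where 2.71% of all groups did. No joined group of any size had an adjusted p under 0.05. Standard errors of the cluster fold changes ran from 0.07 to 0.72 with a median of 0.19, where the median absolute fold change was 0.14.

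Most clusters were nevertheless somewhat more accessible in HAT1-/- cells by their point estimates. The median log2 fold change (KO minus WT) was 0.13, with quartiles of 0.01 and 0.26, and the median over all joined groups was -0.0050. The value was above 0 in 48 of 63 clusters (76.2%, against 49.5% of all joined groups). Both KO libraries exceeded both WT libraries in 16 clusters (25.4%, against 13.1% of all groups), both lay below in 3 (4.76%, against 14.4%), and the genotypes overlapped in 44. These counts describe the clusters and were not tested, since the clusters share the same 4 libraries and the set of clusters was proposed with earlier results known.

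The scaling between libraries moved these counts. With every library set to the same total, the clusters with KO above WT numbered 12 and those below numbered 6 (10.3% and 18.7% of all groups), and the median was 0.07 where that of all groups was -0.07. With quantile normalization the counts were 9 and 6 (14.3% and 12.9% of all groups), so that the share with KO above equalled the background. With the level of each chromosome in each library removed they were 9 and 8 (10.6% and 18.6% of all groups). That level was a median over the chromosome's sites at or above the table's median value, relative to the mean of the libraries. The median was 0.07 under quantile normalization where all groups had 0.02, and 0.06 with chromosome levels removed where all groups had -0.06. When only sites at or above the table's median value were joined into the sums, 19 clusters had KO above and 3 had KO below (18.0% and 9.17% of all groups), with a median of 0.13 beside 0.07. Clusters with a log2 fold change above 0 numbered 38 under equal totals, 41 under quantile normalization and 40 with chromosome levels removed. With those stronger sites alone they numbered 50. The shares of all groups above 0 were 42.5%, 52.7%, 43.2% and 59.4% in that order.

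**Figure D2:**
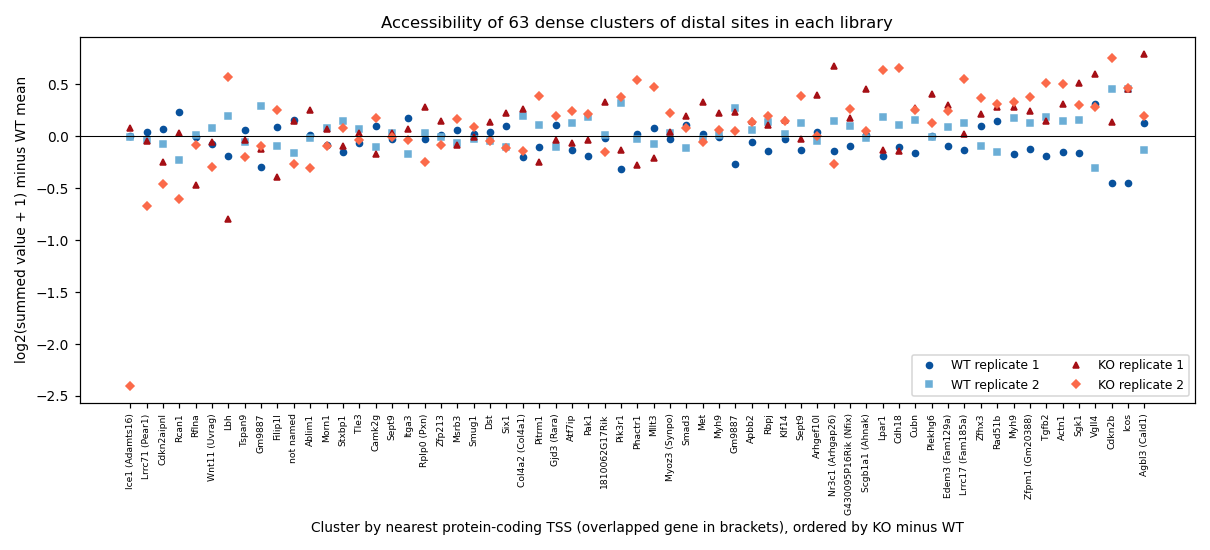
Log2(summed value + 1) of each of the 63 clusters in each library, minus the mean of the 2 WT libraries, with clusters ordered from left to right by KO minus WT. Both KO libraries lie above both WT libraries in 16 clusters and below both in 3, and KO replicate 2 of the Adamts16 cluster (nearest TSS Ice1) is at -2.40 against the WT mean.

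The KO libraries held slightly more of their signal in the clusters. The clusters took 0.562% and 0.587% of the library total in WT replicates 1 and 2, and 0.603% and 0.599% in KO replicates 1 and 2. The KO values were both higher, but 2 libraries against 2 cannot give a two-sided exact permutation p below 0.333. KO replicate 1 was the highest library in 23 clusters and KO replicate 2 in 27, whereas WT replicate 1 was the lowest in 27. Each KO library exceeded the WT mean in 41 clusters (65.1%, against 50.5% and 49.96% of all joined groups), but both did so together in only 25 (39.7%, against 27.3%). Within a genotype, the pair of WT lines differed by a median absolute log2 value of 0.20 over the clusters and the pair of KO lines by 0.25.

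Smaller groups showed values of the same kind. Both KO libraries exceeded both WT libraries in 35 groups of 5 sites (25.5%), beside 25.4% of the clusters and 13.1% of all joined groups. The median log2 fold change was -0.03 for lone sites, 0.04 for groups of 2, 0.08 for groups of 3, 0.11 for groups of 4 and 0.15 for groups of 5, then 0.09 for groups of 6 and 0.15 for groups of 7. The median value per site was higher in larger groups as well, at 38.0 for lone sites and 88.1 for groups of 6. The part of the signal level in the shift was not tested with other groups of equal signal, and among sites at or above the table's median value the medians were 0.14 for members, 0.11 for groups of 2 to 5 and 0.05 for lone sites.

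Among individual clusters, the smallest p belonged to one upstream of Sgk1, which encodes a serine/threonine kinase induced by serum and glucocorticoids. It held 6 intergenic sites at chr10:21783600-21802081, centred 89.3 kb from the Sgk1 TSS. Its summed values were 1262 and 1577 in WT and 2014 and 1741 in KO, a log2 fold change of 0.41 ± 0.14 (SE, limma adjusted p = 1). All 6 sites had a higher mean in KO, and the KO libraries were above both WT libraries in the sum. The value was 0.24 under quantile normalization and 0.25 without WT replicate 1. The strongest site, whose sequence is printed above, had 663 and 828 in WT against 1033 and 940 in KO, and its left-hand neighbour had 248 and 235 against 341 and 355. The 4 remaining sites were weaker, with log2 fold changes of 0.12 to 0.83 and p-values that missed 0.05. Other sites within 1 Mb had a median log2 fold change of -0.06, and the promoter site of Sgk1 had values of 60, 45, 87 and 39 in WT replicates 1 and 2 and KO replicates 1 and 2, which overlap.

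The Actn1 cluster came next in p. Actn1 encodes alpha-actinin 1, which cross-links actin filaments, and the cluster held 7 sites in its introns at chr12:80220217-80239749. The summed values were 957 and 1180 in WT and 1315 and 1503 in KO, a log2 fold change of 0.40 ± 0.14 (SE, limma adjusted p = 1). Every one of its 7 sites had a higher mean in KO. Its leftmost site, chr12:80220217-80221043, had the smallest p of all member sites, 0.00846 before adjustment. It read 239 and 265 in WT against 405 and 359 in KO (log2 fold change 0.60, limma adjusted p = 1), which is short of the log2 fold change of 1 required for a site call. The Actn1 promoter site read 692 and 815 in WT and 878 and 920 in KO. The level of chromosome 12 was 0.884 and 1.01 in WT replicates 1 and 2 and 1.05 and 1.03 in KO replicates 1 and 2. It was taken over sites at or above the table's median value, relative to the mean of the libraries. The cluster's log2 fold change with that level removed was 0.26. Without WT replicate 1 it was 0.25.

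Clusters at cytoskeleton genes were counted as a list. In a list of 38 cytoskeleton and adhesion genes, 3 genes had 4 clusters by nearest TSS, among them Actn1 and a pair at Myh9. Of these 4, 3 had both KO libraries above both WT libraries, beside 25.4% of all clusters and 13.1% of all joined groups. Called clusters numbered 0, beside 0.405% of all joined groups. Myh9 encodes the heavy chain of non-muscle myosin IIA. Its upstream cluster of 8 sites at chr15:77875975-77893618 had 1290 and 1643 in WT and 1766 and 1835 in KO (0.31 ± 0.13, SE), and the intronic cluster of 6 sites had 1083 and 1096 against 1272 and 1136 (0.14 ± 0.11, SE). Other sites within 1 Mb of them had median log2 fold changes of 0.23 and 0.24, and chromosome 15 stood at 1.12 in KO replicate 1, so neither cluster stood above its surroundings by more than its error. With the chromosome level removed the first was at 0.14 and the second at -0.03, under quantile normalization they were at 0.20 and 0.03, the first was at 0.13 without WT replicate 1 and the second at 0.06 without KO replicate 1.

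Taking the gene body a cluster lies in as well as the nearest TSS, a choice made after the values were seen, the same list had 7 clusters. Their median log2 fold change was 0.25, beside 0.13 over all clusters, and 6 were above 0, beside 76.2% of all clusters. In 5 of them both KO libraries lay above both WT libraries, beside 25.4% of all clusters and 13.1% of all joined groups. The added ones lay in Cald1, Ahnak and Pxn, which encodes the focal adhesion protein paxillin. The Cald1 cluster (nearest TSS Agbl3, chr6:34707547-34722126, 7 intronic sites) had the largest positive log2 fold change, 0.49 ± 0.23 (SE), from 577 and 482 in WT and 915 and 603 in KO, but this was 0.19 without KO replicate 1 and 0.79 without KO replicate 2. Its sites did not move as one, since its rightmost site read 99 and 14 in WT and 245 and 119 in KO while its leftmost read 59 and 54 against 45 and 36. The Ahnak cluster had 1158 and 1136 in WT and 1570 and 1188 in KO with all 6 sites higher in mean, and the Pxn cluster had 726 and 754 against 899 and 624, which overlap. Chromosome 19, which carries Ahnak, stood at 1.26 in KO replicate 1, and the 0.25 of the Ahnak cluster was 0.001 with the chromosome level removed, 0.05 without KO replicate 1 and 0.45 without KO replicate 2.

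Other pathway lists held few clusters. Of 47 matrix and matricellular genes, 1 was nearest to a cluster, Col4a2, although its 9 sites lay in introns of the neighbouring Col4a1 (both encode type IV collagen chains of the basement membrane). This was the longest cluster, at 29.1 kb, and it had 631 and 829 in WT and 870 and 655 in KO. Of 36 genes of the TGF-beta and BMP pathway, 2 were nearest to a cluster. The cluster named for Tgfb2, which encodes a ligand, was intergenic and centred 253 kb from the Tgfb2 TSS. It had 547 and 712 against 690 and 889. The cluster in introns of Smad3, which encodes a signal transducer, had 908 and 781 against 963 and 889. Neither of these was free of overlap, and the log2 fold change of 0.33 at Tgfb2 was 0.14 without WT replicate 1 while that of 0.14 at Smad3 was 0.03 without WT replicate 2. With gene bodies counted as well, the TGF-beta and BMP list had 3 clusters, 2 of them above 0. The added cluster overlapped Ski (nearest TSS Morn1), had a log2 fold change slightly below 0 and did not separate the genotypes. Of 28 growth factor receptors and ligands only Met, the receptor of hepatocyte growth factor, had a cluster, with 303 and 293 against 374 and 287. None of the 13 AP-1 genes and none of the 52 mesenchymal transcription factors was nearest to a cluster, although Nfix, which encodes a nuclear factor I protein, held a cluster in its body (1060 and 1212 in WT, 1282 and 1361 in KO, 0.22 ± 0.11, SE, and 0.12 under quantile normalization or without WT replicate 1).

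Of the largest clusters, the Lrrc17 cluster (chr5:21481493-21503486, 10 sites lying in Fam185a and Fbxl13) had 881 and 1056 in WT and 978 and 1415 in KO. Its log2 fold change of 0.29 was 0.02 without KO replicate 2 and 0.55 without KO replicate 1, and 8 of its 10 sites had a higher mean in KO. The Itga3 cluster, with as many sites, had 921 and 722 against 858 and 794, a log2 fold change of 0.02 ± 0.16 (SE), so its SE was several times the estimate. The 8-site cluster upstream of Zfpm1, which encodes the GATA cofactor FOG1, had 1275 and 1515 in WT and 1641 and 1809 in KO (0.31 ± 0.12, SE), the third smallest p. It was 0.14 as a mean of site logs, 0.20 under quantile normalization and 0.19 without WT replicate 1. All 8 sites of the Plekhg6 cluster had a higher mean in KO, from 1236 and 1231 in WT to 1631 and 1349 in KO, and its log2 fold change of 0.27 was 0.13 without KO replicate 1 and 0.40 without KO replicate 2.

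The cluster with the highest signal per kb lay 119 kb upstream of Klf14, an imprinted Krüppel-like factor gene, with 2029 and 2091 in WT and 2301 and 2275 in KO (0.15 ± 0.07, SE). The genotypes did not overlap in these values, but the log2 fold change was 0.0099 under quantile normalization and 0.08 under equal totals. At other large clusters the genotypes overlapped, or nearly so. The 9 sites in Pik3r1, which encodes the regulatory p85 subunit of PI3-kinase, had 390 and 605 against 444 and 633. The 8 sites upstream of Tle3, which encodes a Groucho family corepressor, had 654 and 717 against 700 and 669. The 8 sites in Synpo (nearest TSS Myoz3) had 1321 and 1371 against 1387 and 1575 (0.14 ± 0.10, SE, and 0.05 under quantile normalization).

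Among the clusters with no overlap between genotypes that the naming rule did not choose, a few were looked up after their values were seen. The 7 sites in Cubn, which encodes the endocytic receptor cubilin, had 1248 and 1555 in WT and 1680 and 1662 in KO, with every site higher in mean. The 7 sites in Zfhx3, a homeobox transcription factor gene, had 637 and 557 against 690 and 769, again with every site higher, and lay 768 kb from the TSS that names them. The log2 fold change in Cubn, 0.26, was 0.13 under quantile normalization and 0.10 without WT replicate 1, and that in Zfhx3, 0.29, was 0.19 without WT replicate 2. The 8 sites in Fam129a (nearest TSS Edem3) had 709 and 803 against 932 and 894. Every autosome held at least 2 of the 63 clusters, and chromosome 6 held the most, with 7.

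Only 3 clusters had both KO libraries below both WT libraries. The first lay in Pear1 (nearest TSS Lrrc71), which encodes an EGF-repeat receptor of platelets and endothelium. It had 786 and 746 in WT and 740 and 481 in KO (-0.36 ± 0.22, SE), and its log2 fold change was -0.05 without KO replicate 2. The second lay upstream of Cdkn2aipnl with 546 and 495 against 438 and 378 (-0.35 ± 0.18, SE). The third lay upstream of Rflna with 574 and 583 against 419 and 544 (-0.28 ± 0.19, SE), and was at -0.09 without KO replicate 1. None of the 3 had a p-value under 0.05.

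A few clusters differed widely between lines of 1 genotype, and these were picked after their values were seen. The cluster in Adamts16 (nearest TSS Ice1), a gene for a secreted metalloprotease, had 652 and 648 in WT and 689 in KO replicate 1 but 122 in KO replicate 2, at chr13:70724321-70736873. KO replicate 2 was the lowest library at each of its 6 sites, reading 14 at the strongest, whose window is printed above, where the other libraries read 161, 166 and 161. The log2 fold change of -1.16 ± 0.72 (SE), the only one beyond 0.58 in size, was 0.08 without KO replicate 2. Other sites within 1 Mb were also lower in that library, with a median of -0.96 on the log2 scale against the mean of the others. It was the only cluster of the 63 whose middle site lay in a 25-site window with a mean log2 fold change under -0.58 (the cutoff used for domains of lowered accessibility), where 3.35% of all autosomal sites did. With windows of 15 sites it was again the only one, where 4.05% of sites did.

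At Lbh, which encodes a transcription cofactor of limb and heart development, the KO lines lay on either side of WT. Its 6 intergenic sites at chr17:72955445-72971346 summed to 818 and 1069 in WT, 537 in KO replicate 1 and 1385 in KO replicate 2. The strongest site, which carries the pair of AP-1 matches shown above, read 247 and 375 in WT, 114 in KO replicate 1 and 433 in KO replicate 2. The fold change of -0.12 ± 0.42 (SE) averaged these opposite values. WT lines differed most at Icos, with 202 and 378 in WT and 378 and 382 in KO, and upstream of Cdkn2b, a cell cycle inhibitor gene, with 293 and 551 in WT and 443 and 678 in KO. Their log2 fold changes, 0.46 and 0.45, were 0.0076 and -0.0077 without WT replicate 1.

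**Figure D3:**
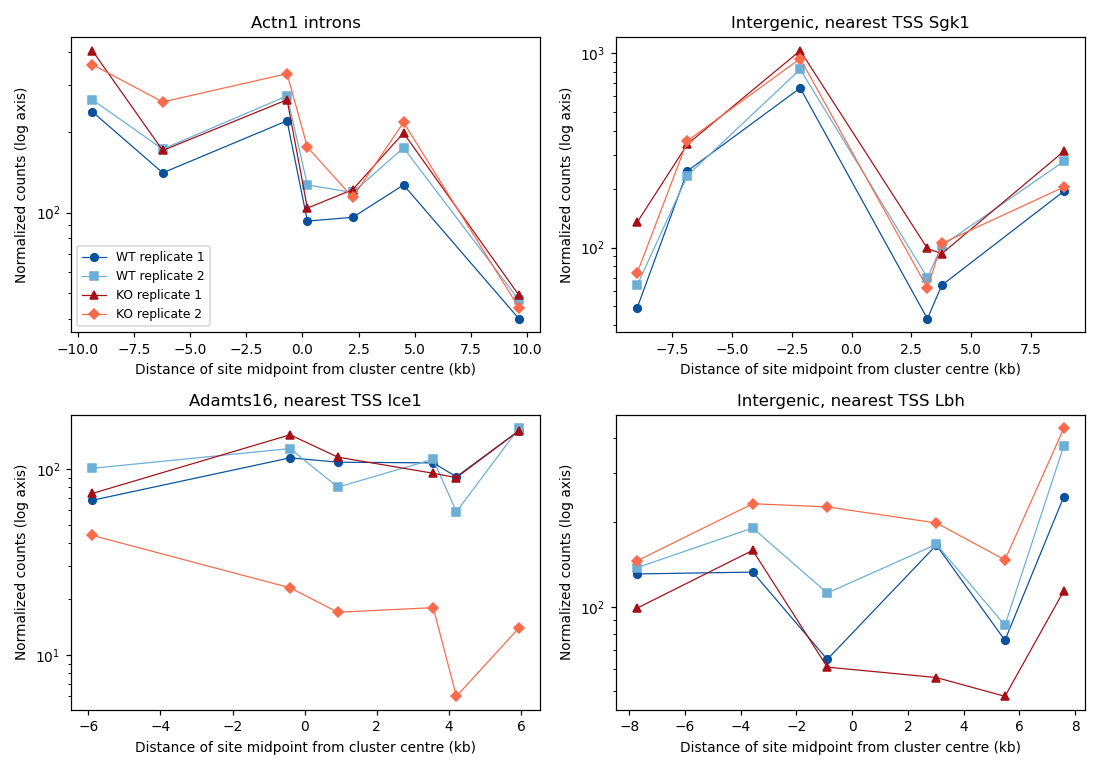
Normalized counts (log axis) of each site in 4 clusters, plotted by the distance of the site's midpoint from the cluster centre, with 1 line per library. KO replicate 2 is lowest at all 6 sites of the Adamts16 cluster, the KO lines diverge at the right-hand sites of the Lbh cluster, and the libraries keep a similar profile over the Actn1 and Sgk1 sites.

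A library stood more than 0.5 on the log2 scale from the mean of the others in 15 of the 63 clusters, and KO replicate 2 did so in 10. That library was also the shallowest, with about 5650000 reads in sites by estimate, against 7830000 to 11400000 in the others. The part of depth in these differences was not tested. Across all cluster sites the smallest value in any library was 3 and the highest 1033, so no member was at 0.

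Part of the difference at a site was shared with the other sites of its cluster. Of the variance in the KO minus WT difference of the 418 sites, a share of 0.261 lay between clusters (intraclass correlation), where the share was 0.159 for WT replicate 1 minus WT replicate 2 and 0.414 for KO replicate 1 minus KO replicate 2. The same shares were 0.432, 0.391 and 0.458 in groups of 2 to 5 sites. The share for KO minus WT was 0.147 without WT replicate 1 and 0.444 without KO replicate 1, so no order among the 3 was read from them. The log2 fold change was above 0 at every site in 9 clusters and below 0 at every site in 2, those in Adamts16 and Pear1. Singly, 0 of 418 members passed a site call (p under 0.01 and a log2 fold change of at least 1 in size), which 0.373% of all sites did (0.302% lower and 0.0705% higher in KO), and 11 (2.63%) had an unadjusted p under 0.05 where 3.13% of all sites did. Of these 11, 10 were higher in KO. No site of the table had an adjusted p under 0.05 by limma.

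The surroundings of the clusters were closer to 0 than the clusters. Over other sites within 1 Mb, numbering 27 to 181 per cluster, the median log2 fold change was 0.02. The cluster exceeded this flank in 40 of 63 with a median excess of 0.10. These measures are not alike, since the cluster value comes from a sum weighted to its stronger sites and the flank value is a median of single sites. As a mean of site logs the median over clusters was 0.09, and the excess over the flank was not computed on that measure. The Pearson correlation between a cluster and its flank was 0.36 and the Spearman correlation 0.14 over the 63, which share the same 4 libraries. For 47 clusters the nearest gene had a promoter site of its own, with a median log2 fold change of 0.05, and cluster and promoter had the same sign in 28 of them. In the Actn1 and Myh9 cases the promoter also read higher in both KO libraries, and in the Cald1 case the promoter of Agbl3, the gene nearest by TSS, did not (366, 332, 307 and 331).

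**Figure D4:**
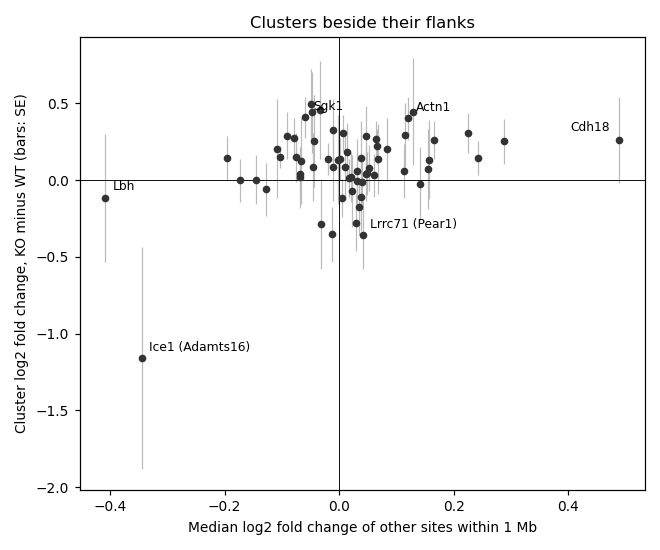
Log2 fold change (KO minus WT) of each of the 63 clusters with its SE as bars (vertical axis) against the median log2 fold change of the other sites within 1 Mb (horizontal axis). Sgk1 lies above 0 with a flank of -0.06, and the Adamts16 cluster (nearest TSS Ice1) lies lowest, with a flank of -0.34.

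The promoter site of Hat1, the targeted gene, read 390 and 384 in WT and 438 and 368 in KO. Open chromatin at a promoter does not show whether the gene is deleted, so this does not check the labels. Of 10 fibroblast marker genes, 9 had a promoter site, with a summed value of 3354 to 4071 over libraries, and Pdgfra had none listed. Of 3 muscle markers (Myod1, Myf5 and Myog) none had a site. Markers of blood, epithelium, endothelium and nerve had sites for 2 of 4, 3 of 4, 3 of 4 and 2 of 4 genes, with summed values of 121 to 312, and Ptprc, Spi1, Grhl2, Cdh5, Pax6 and Rbfox3 had none.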

How the data were processed

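ATAC-Seq was measured in 2 HAT1 WT and 2 HAT1 KO lines. Per the labels and the study's methods, reads were aligned to mm10 with BWA 0.7.12, peaks were called with MACS2 2.1.0 and counts were compared with DESeq2. The deposited table lists 82325 merged sites with 1 normalized count per library, which is treated here as a score because the authors scaled it and rounded it to whole numbers. It also holds the authors' log2 fold changes, p-values and adjusted p-values, which were not used. The filter on peaks, and whether duplicate reads or the Tn5 offset were handled, are not given in the sources used here. Scaling sets which differences appear, and rounding adds error at low values.

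Start sites were taken from GENCODE M21 at the gene level, on GRCm38 (mm10). Clusters and named genes follow the rule in the report. Named clusters are those with the most sites, the lowest and highest log2 fold changes without overlap between genotypes, listed genes, the highest signal per kb, and the smallest differences among clusters with 8 or more sites. The values of 1 of these are not reported here, though it is counted. The members and lists were chosen with earlier results of these data known. Sums were compared as log2(value + 1) with limma 3.58.1 (R 4.3.3, intensity trend, two-sided, Benjamini-Hochberg adjustment), all joined groups in 1 fit and all sites in another, checked on simulated data. P-values measure the spread between lines. The added 1 shrinks the fold changes of weak sites. Sequence windows were read from the GRCm38 assembly and copies were sought with minimap2 2.31. Depth was estimated from the pattern of whole numbers in each column. It came to about 9420000 and 11400000 reads for the WT lines and 7830000 and 5650000 for the KO lines. Of the whole numbers from 1 to 100, the KO columns skip 7 and 34 and the WT columns skip 0. Counting error is larger in the shallower libraries. Alternatives were another pseudocount, scaling, gap, size limit, start-site set, window and left-out libraries.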

Additional observations from a re-analysis of the deposited data

How the results depend on the processing

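The median log2 fold change was 0.0656 under equal totals, 0.0687 under quantile normalization, 0.0592 with the chromosome level removed, 0.0883 as a mean of site logs, and -0.11 with gaps of at most 2.5 kb, where 2 clusters remained. Clusters with KO above and below WT numbered 9 and 8 with the chromosome level removed, 9 and 6 under quantile normalization, 12 and 6 under equal totals, 0 and 0 with the 2.5 kb gap, 165 and 29 of 645 with gaps of at most 10 kb, 51 and 10 of 200 with 5 or more sites, 5 and 0 of 11 with 8 or more, and 10 and 2 of 45 with every transcript TSS. For the last 5 of these settings, 13.1% to 13.2% of all groups were above and 14.2% to 14.7% below. With the 10 kb gap 1 of 645 clusters and 161 of all joined groups were called. The total of groups under that gap was not recorded, so no share is given and nothing is read from the 1 call. With 5 or more sites 1 of 200 was called, where 0.405% of all joined groups were. Leaving out each library gave a median of 0.0858 to 0.150 and an intraclass correlation of 0.147 to 0.444. Clusters above numbered 22 to 36 (26.7% to 33.3% of all groups) and clusters below 7 to 17 (27.6% to 34.2%). Calls are not given for these fits, which leave 1 library in a genotype. Without WT replicate 1, KO replicate 1 or KO replicate 2, 41 clusters were above 0, and without WT replicate 2, 48 were, a count chosen after seeing the data. Without KO replicate 1 the log2 fold change of the Adamts16 cluster was -2.40. Among higher-signal sites the intraclass correlation was 0.434 and members exceeded other distal sites by 0.42. With 500-base windows, 52.4% of members held an AP-1 match, against 50.7% of other distal sites. Among named clusters the sign changed for Itga3 (-0.0510 equal totals, -0.0153 quantile, -0.00819 higher-signal, -0.0414 chromosome), Col4a2 (-0.00673 equal totals, -0.0245 chromosome), Tle3 (0.0799 mean of site logs), Met (-0.148 mean of site logs), Pxn (-0.0507 equal totals, -0.0316 quantile, -0.0200 chromosome) and the intronic Myh9 cluster (-0.0289 chromosome). With each library left out in turn, the range was -0.158 to 0.193 for Itga3, -0.143 to 0.266 for Col4a2, -0.190 to 0.442 for Pik3r1, -0.0672 to 0.0653 for Tle3, -0.0539 to 0.327 for Met, -0.799 to 0.566 for Lbh, -0.245 to 0.281 for Pxn, -0.00768 to 0.901 for Cdkn2b and -2.40 to 0.0840 for Adamts16. The other clusters with values in the text kept their sign under these settings. The cause was not tested. No paired analysis was possible because the labels share only 1 line number between genotypes, fewer than 2. The 4 libraries limit every comparison.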
